A study of Mus musculus with 8 samples.

Results

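The 40 genes described here encode the chaperones of the endoplasmic reticulum, the cytosol and the mitochondrion and the signalling proteins of the unfolded protein response. They were taken by name from the gene names of the array, and all 40 were found among 27218 gene names. The list was chosen with earlier results of these data known. For this description they fall into 22 endoplasmic reticulum genes (14 chaperones and folding enzymes, 4 degradation factors, 4 sensors and their factors), 6 genes of the ATF4 arm, 10 cytosolic heat shock genes and 2 mitochondrial chaperonins. All 40 passed the filter on dim probes, and 37 were well above background on all 8 arrays. The other 3 (Atf6, Ddit3 and Bag3) were so on 7, and on the remaining array their spots were left out as outliers, not as dim.

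Liver RNA was measured in male wild-type mice of the C57Bl/6J strain, 14 weeks old and fasted for 4 h, on one-colour Agilent arrays with 2 arrays in each of 4 diet groups. In the BD_HF group the dams ate a standard breeder diet and the offspring a high fat diet (60% kcal from fat) after weaning. LF_HF dams received, from embryonic day 10.5, a defined diet low in fat (12% kcal) and sufficient in vitamin A, and their offspring ate the high fat diet. LF_LF mice had that sufficient low fat diet before and after weaning, and VAD_VAD mice a low fat diet (12% kcal) deficient in vitamin A at both stages. In LF_LF and VAD_VAD the maternal diet also began at embryonic day 10.5. The design sets BD_HF against LF_HF, LF_HF against LF_LF, and VAD_VAD against LF_LF. BD_HF against LF_LF was added because it uses no LF_HF array, and there both the maternal and the post-weaning diet differ. The labels do not say whether the arrays of a group come from separate animals, so each p-value reflects only how far these samples differ from each other, which may be technical. In whole liver, fewer cells of a type and less RNA per cell cannot be told apart.

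Proteins made for secretion fold in the endoplasmic reticulum with the help of chaperones such as BiP, the product of Hspa5, and proteins that fail to fold are exported and degraded. When unfolded proteins build up, the sensors IRE1 (Ern1), PERK (Eif2ak3) and ATF6 raise the transcription of chaperone and degradation genes, while PERK and other kinases slow translation and favour the making of ATF4, which turns on genes of amino acid supply. Misfolding in the cytosol is read by a separate factor, HSF1, which drives the heat shock genes. The liver is rich in this machinery because hepatocytes secrete most plasma proteins.

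Levels below are log2 signals relative to the 75th percentile of the same array, so that 0 is the brightness of that percentile, and they are compared between arrays for 1 gene, not between genes. A gene is called when its adjusted p from limma, over 17259 genes, is under 0.05. The first LF_HF array stood apart from the other 7. It had 2707 outlier spots against 46 to 316, 88.4% of its gene spots were well above background against 57.6% to 64.7%, its spike-in slope was 0.962 against 0.993 to 1.01, and its extraction quality result alone differed from that of the other 7. The LF_HF pair correlated at 0.919 over genes, the other pairs at 0.977 to 0.992. Its median absolute difference over the 40 genes was 1.16, against 0.21 to 0.47 in the other pairs. The difference between the LF_HF arrays moved with brightness, from a median of 2.07 (replicate 1 minus replicate 2) in the dimmest quintile of genes to -0.90 in the brightest. Each result is therefore given with all 8 arrays and without LF_HF replicate 1.

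**Figure D1:**
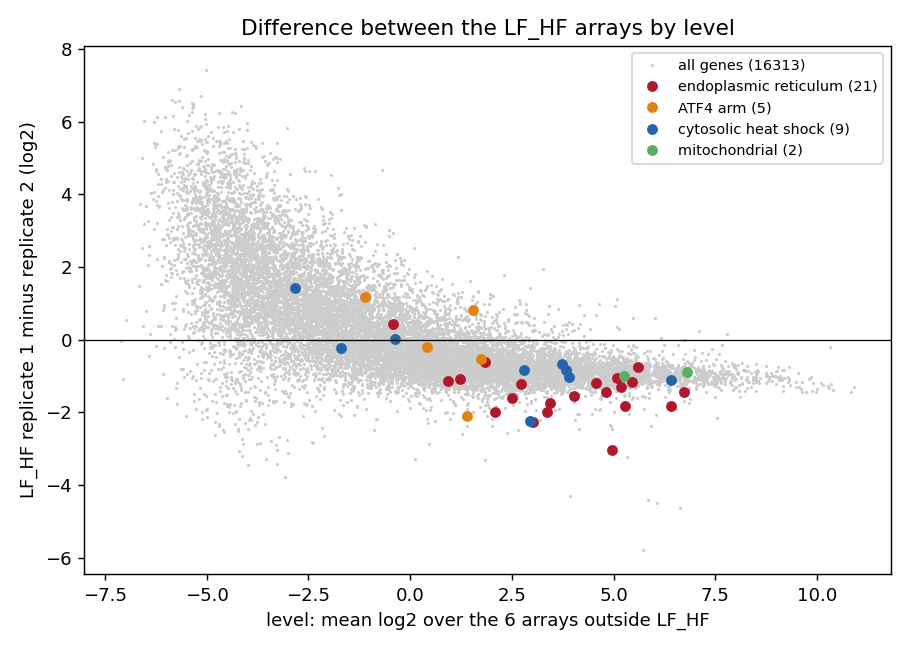
Difference between the 2 LF_HF arrays (vertical axis, log2, replicate 1 minus replicate 2) against the mean log2 level over the 6 other arrays (horizontal axis); grey points are all genes, coloured points the members by set. Dim genes lie above 0 and bright genes below it, and 20 of the 21 endoplasmic reticulum genes lie below 0 (median -1.43).

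The 21 endoplasmic reticulum genes with a value on both LF_HF arrays had a median difference between them of -1.43, and the 9 such cytosolic genes one of -0.82. Among genes of the brightest quintile, the 15 endoplasmic reticulum genes had a median of -1.44 (range -3.02 to -0.75), the 6 cytosolic ones -0.93, and all genes -0.90. Of the 22 endoplasmic reticulum genes 20 read above the LF_LF mean on the second LF_HF array, all but Dnajb9 and Eif2ak3. Of genes in the brightest quintile 77.2% did. On the first, 4 of 21 did (Calr, Herpud1, Sel1l and Xbp1).

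**Figure D2:**
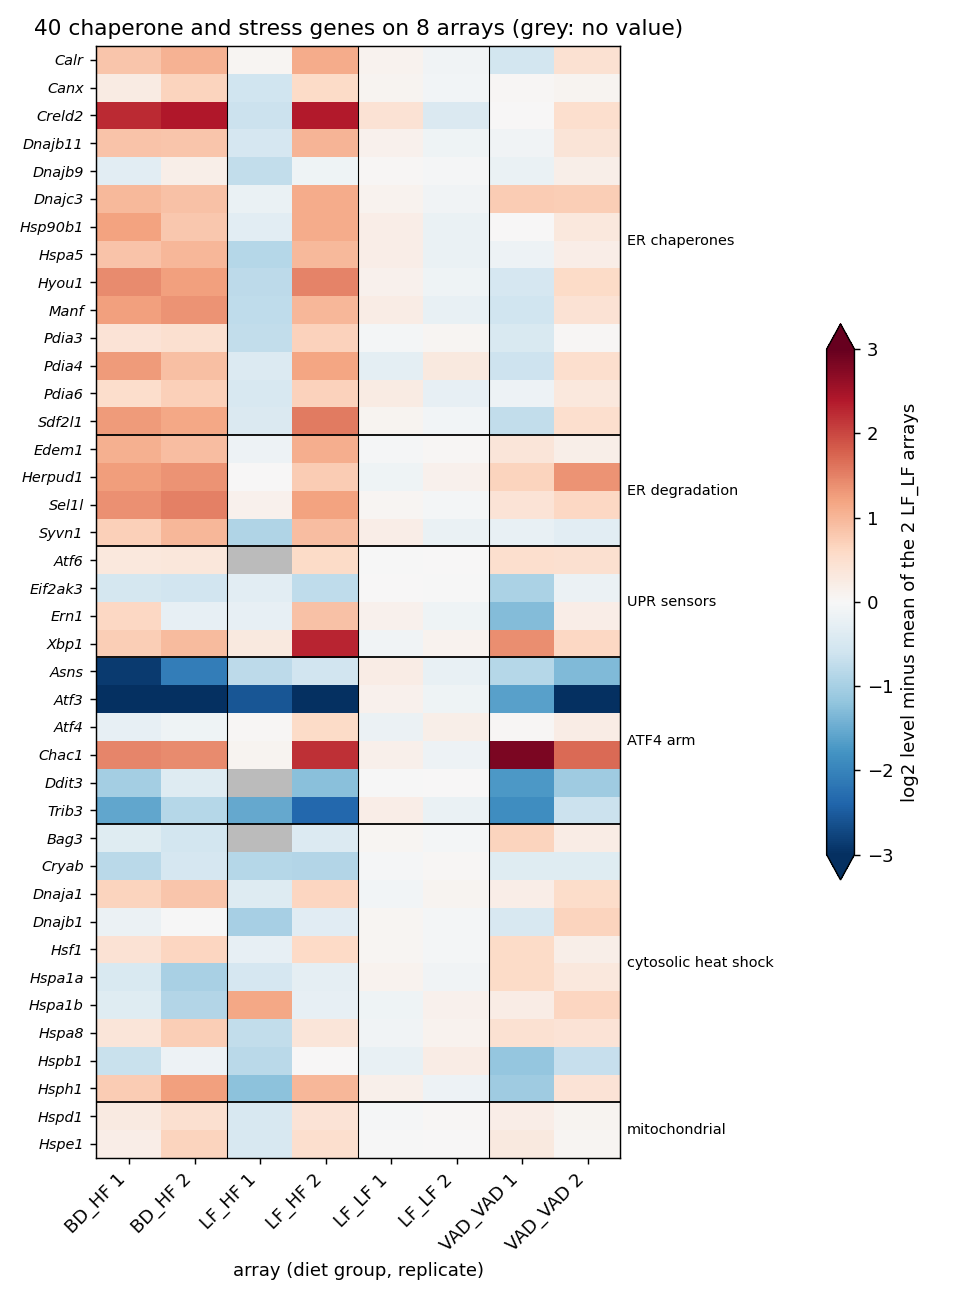
Level of each of the 40 genes (rows) on each of the 8 arrays (columns), as the log2 difference from the mean of the 2 LF_LF arrays; grey marks no value. Of the 22 endoplasmic reticulum rows 20 are above the LF_LF mean on each BD_HF array and on LF_HF replicate 2, and 4 of 21 on LF_HF replicate 1, and the ATF4-arm rows Asns, Atf3, Ddit3 and Trib3 are blue outside LF_LF while Chac1 is red on every array outside LF_LF but LF_HF replicate 1, where it is near 0.

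BD_HF against LF_LF asks how mice on the high fat diet from breeder-fed dams differ from mice kept on the low fat diet. The listed genes for folding and degradation in the endoplasmic reticulum mostly had positive differences. Of the 6 genes of the ATF4 arm 5 had negative differences and Chac1 a positive one, and the cytosolic heat shock genes went in both directions. The list was chosen with earlier results known, and no set was tested. A list of 40 other endoplasmic reticulum genes had a median of 0.14, with 26 positive, near that of all genes. With all 8 arrays 1 of the 40 genes was called, Asns, lower in BD_HF, where 1.52% of all genes tested were called and 1.06% were called lower. Of the 22 endoplasmic reticulum genes 20 had a positive difference (median 0.93, range -0.55 to 2.32, all genes 0.11), and 19 lay higher on both BD_HF arrays than on both LF_LF arrays against 34.3% of all genes, or 47% of genes in the brightest quintile. The median was 0.79 within the first slide and 0.98 within the second, each slide holding 1 array of every group. The 10 cytosolic genes had a median of -0.25, with 4 entirely above and 4 entirely below LF_LF, against 34.3% and 26% of all genes.

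Without LF_HF replicate 1 the spread estimate no longer held that pair, and 7 of the 40 genes were called in BD_HF against LF_LF, with 9.14% of all genes. Creld2, Sel1l, Herpud1, Edem1 and Dnajc3 rose in BD_HF, where 2.84% of all genes were called higher, and Asns and Atf3 fell, where 6.3% were called lower. None of the 10 cytosolic genes was called with limma in either fit. In a fit of the 4 arrays of these groups alone, 16 of the 40 were called, with 14.9% of all genes. These were 12 endoplasmic reticulum genes and Chac1, higher, and Asns, Atf3 and Trib3, lower. When a BD_HF or LF_LF array was left out as well as LF_HF replicate 1, 0 or 1 of the 40 remained called.

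LF_HF against LF_LF asks what the high fat diet changed in offspring of low fat dams. None of the 40 genes was called with limma with all 8 arrays, where 2.5% of all genes were. An unadjusted p under 0.05 was reached by 4 of the 40, against 16.6% of all genes. On every LF_HF array with a value, 4 of 10 cytosolic and 4 of 6 ATF4-arm genes lay below both LF_LF arrays, against 22.7% of all genes. Of each 4, 1 gene (Bag3 and Ddit3) had a value on LF_HF replicate 2 alone. Leaving out LF_HF replicate 1, which leaves 1 array in LF_HF whose spread is assumed to be that of the other groups, gave 8 calls (11.1% of all genes). Xbp1, Creld2, Chac1, Sel1l, Dnajc3 and Edem1 were higher, where 2.38% of all genes were, and Trib3 and Atf3 lower, where 8.69% were. With the slide as a block in that fit, Edem1 and Atf3 were not called and Ddit3 was, lower. Without LF_HF replicate 1, 20 of 22 endoplasmic reticulum genes lay above both LF_LF arrays, against 48.9% of all genes. Of 10 cytosolic genes 4 lay above and 5 below, against 48.9% and 35.7%. Against the LF_LF mean, 20 of 22 endoplasmic reticulum genes had a positive difference on LF_HF replicate 2, beside 77.2% of genes in the brightest quintile. The endoplasmic reticulum median moved from 0.37 to 1.01 when LF_HF replicate 1 was left out, and was -0.44 when the other LF_HF array was left out. The median of all genes was -0.02 with both arrays and 0.12 with replicate 2 alone. With normexp background correction 9.48% of all genes were called higher and 5.92% lower, against 0.62% and 1.88% without it. This comparison and the preceding one share the LF_LF arrays.

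BD_HF against LF_HF asks what the maternal diet did to offspring that all ate the high fat diet. None of the 40 was called with limma with all 8 arrays (0.00579% of all genes). Asns alone reached an unadjusted p under 0.05, as 5.39% of all genes did, with a difference of -1.78 (SE 0.39, adjusted p 0.787). None was called without LF_HF replicate 1 either, nor was any other gene (0% of all genes). In that fit 10 of 22 endoplasmic reticulum genes were lower on both BD_HF arrays than on LF_HF replicate 2, against 31% of all genes. With LF_HF replicate 2 left out instead, 16 were called (18.4% of all genes), among them 11 endoplasmic reticulum genes and the cytosolic Dnaja1, Hspa8 and Hsph1, higher in BD_HF (3.6% of all genes), and Asns and Hspa1b, lower. The endoplasmic reticulum median was 0.56 with both LF_HF arrays and -0.10 without replicate 1, so the sign of this difference depended on that array. For the cytosolic genes the same medians were 0.27 and -0.03.

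VAD_VAD against LF_LF asks what a vitamin A deficient diet, begun at embryonic day 10.5, changed when fat was low. The endoplasmic reticulum genes lay near LF_LF (median 0.05, 13 of 22 positive, all genes 0.09), with medians of -0.35 on the first slide and 0.51 on the second. The cytosolic genes had a median of 0.37, 7 of 10 positive, and 6 lay entirely above LF_LF, beside 32.5% of all genes and 57.4% of the brightest quintile. None of the 40 was called with limma with all 8 arrays (0.632% of all genes), and 6 had an unadjusted p under 0.05, against 10.3% of all genes. Without LF_HF replicate 1, Chac1 was called, higher in VAD_VAD, where 5.28% of all genes were called, 1.34% higher and 3.94% lower, and with the slide as a block Ddit3 was called too, lower. In a fit of these 2 groups alone none of the 40 was called with limma and 9 had an unadjusted p under 0.05, and 2.83% of all genes were called, 0.492% higher. With normexp background correction the calls over all genes split into 0.608% higher and 1.48% lower, against 0.104% and 0.527% without it. In the F test over the 4 groups none was called with all arrays (0.985% of all genes), and without that array Asns, Chac1, Creld2, Sel1l and Xbp1 were (9.92%).

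**Figure D3:**
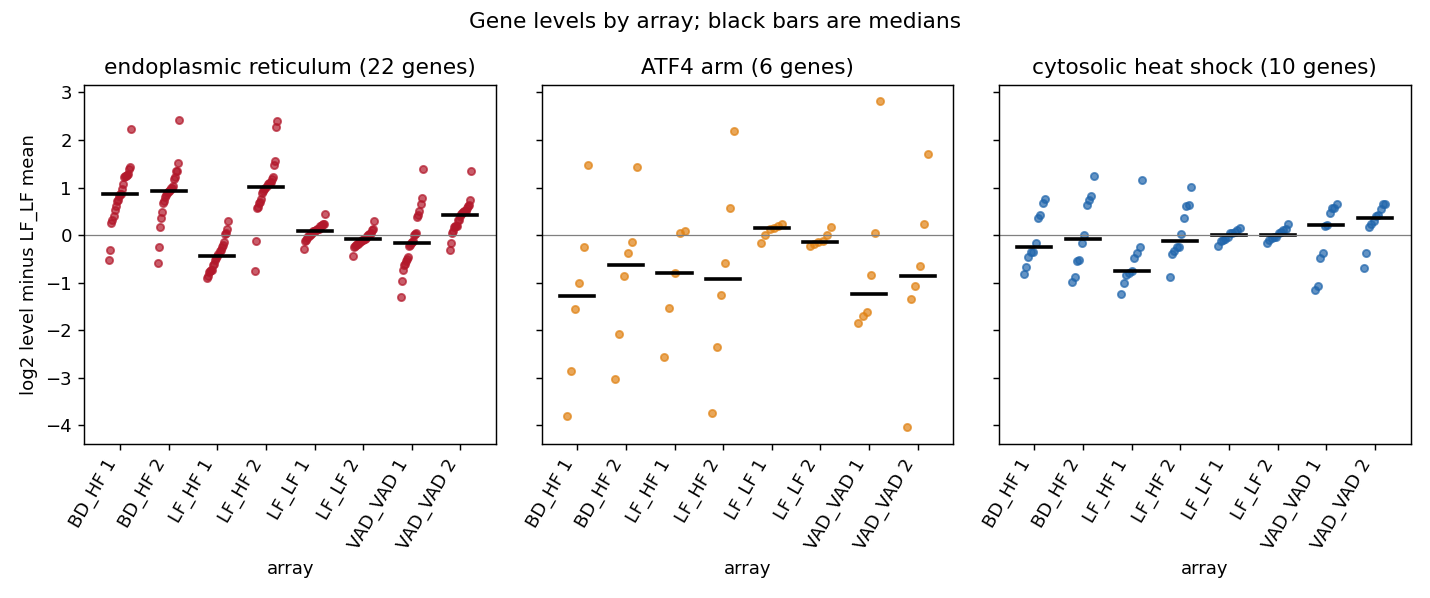
Levels of the endoplasmic reticulum, ATF4-arm and cytosolic genes on each array as log2 difference from the LF_LF mean; a point is a gene and a black bar the median of the set on that array. The endoplasmic reticulum median is 1.01 on LF_HF replicate 2 and -0.44 on LF_HF replicate 1, and the cytosolic median is -0.12 and -0.75 on the same arrays.

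Among the 14 chaperones and folding enzymes, 13 had a positive difference between BD_HF and LF_LF, and the median was 0.93. Hspa5, which encodes BiP, the main Hsp70 of the endoplasmic reticulum (probe at chr2:34631630-34631689, mm9), read 6.97 and 7.11 for BD_HF, 5.25 and 7.07 for LF_HF, 6.30 and 5.91 for LF_LF and 5.94 and 6.30 for VAD_VAD. Both BD_HF arrays and the second LF_HF array were above all 4 low fat arrays, and the first LF_HF array was the lowest of the 8. The difference between BD_HF and LF_LF was 0.93 (SE 0.57, adjusted p 0.586), and 0.93 (SE 0.25, adjusted p 0.0761) without LF_HF replicate 1. It was not called in either fit.

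Creld2, a protein with disulfide isomerase activity that is secreted under reticulum stress (probe at chr15:88656997-88657056, mm9), had the largest difference of the chaperones. It read 6.34 and 6.52 for BD_HF, 3.47 and 6.50 for LF_HF, 4.54 and 3.67 for LF_LF, and 4.12 and 4.61 for VAD_VAD. The BD_HF arrays and LF_HF replicate 2 lay close together, far above the remaining 5. BD_HF exceeded LF_LF by 2.32 (SE 0.87, adjusted p 0.323) with all arrays and by the same 2.32 (SE 0.35, adjusted p 0.0125), or 5.01-fold, without LF_HF replicate 1. On LF_HF replicate 2 it exceeded LF_LF by 2.39 (SE 0.43, adjusted p 0.0187), and VAD_VAD differed from LF_LF by 0.26.

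Dnajc3, the co-chaperone P58IPK that also binds PERK (probe spanning chr14:119370014-119371633, mm9), read 5.59 and 5.49 for BD_HF, 4.40 and 5.72 for LF_HF, 4.72 and 4.50 for LF_LF and 5.38 and 5.34 for VAD_VAD. Here the VAD_VAD arrays lay with the BD_HF arrays rather than with LF_LF. Without LF_HF replicate 1 BD_HF exceeded LF_LF by 0.93 (SE 0.21, adjusted p 0.0477), and VAD_VAD by 0.75 (SE 0.21, adjusted p 0.105), which was not called. The 4 probes of Dnajc3 gave the same sign in BD_HF against LF_LF.

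The other 11 chaperones and folding enzymes were not called in BD_HF against LF_LF in either fit. Their differences ran from -0.07 for Dnajb9, an Hsp40 that recruits BiP, to 1.33 for Hyou1, a large Hsp70 that exchanges the nucleotide of BiP. Hsp90b1, the reticulum's Hsp90 (1.01), Manf, a secreted BiP partner (1.29), Sdf2l1 (1.22), the disulfide isomerase Pdia4 (1.09) and the lectin chaperone Calr (0.93) lay between them. Except for Dnajb9, each of the 11 was higher on both BD_HF arrays than on both LF_LF arrays. A dim second probe of Hyou1 and 1 of the 4 probes of Pdia6, another disulfide isomerase, had the opposite sign.

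The promoters of the reticulum genes are known for the element ERSE, which ATF6 binds together with NF-Y. RefSeq promoter windows of 300 bases (250 before the start site and 50 after, GRCm38.p6) were found for 34 of the 40 genes, and Hspa8, Hyou1, Manf, Atf6, Cryab and Hsf1 had no entry. ERSE was searched as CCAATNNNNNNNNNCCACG on both strands, and it was present in 39 of 32851 promoters (0.119%). By gene it was present in 37 of 27025 symbols (0.137%) and in 8 of the 19 endoplasmic reticulum members with a promoter, none of the 6 ATF4-arm genes, none of 7 cytosolic genes and neither mitochondrial gene. The 8 were Calr, Canx, Creld2, Dnajc3, Hsp90b1, Hspa5, Pdia6 and Syvn1. The windows below show the motif in capitals with 20 bases on either side, for Hspa5 and for the called genes that hold it, and for Syvn1, where it lies nearest to the start site. They lie at chr2:34772005-34772063, chr15:88819500-88819558, chr14:118937807-118937865 and chr19:6046512-6046570, all on the forward strand. In Creld2 the capitals are the reverse complement of the motif.
Hspa5: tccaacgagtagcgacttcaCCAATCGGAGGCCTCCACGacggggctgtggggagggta
Creld2: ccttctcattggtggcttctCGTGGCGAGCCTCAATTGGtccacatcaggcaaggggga
Dnajc3: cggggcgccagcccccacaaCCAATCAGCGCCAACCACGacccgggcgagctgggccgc
Syvn1: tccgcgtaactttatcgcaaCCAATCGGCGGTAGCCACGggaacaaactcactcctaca

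The motif began 65 bases before the start site in Hspa5, 126 in Creld2, 105 in Dnajc3 and 44 in Syvn1. The 8 genes that hold it had a median difference of 0.93 between BD_HF and LF_LF, with 8 of 8 positive, and the 9 endoplasmic reticulum genes with a promoter and neither form of the element had a median of 0.84, with 7 positive. Among 12 tested genes outside the members whose promoters hold the motif, the median was 0.43 and 8 were positive. A match says only that these letters are present, and no binding was measured. The UPRE motif TGACGTGG, present in 0.676% of promoters, was in no member's window.

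**Figure D4:**
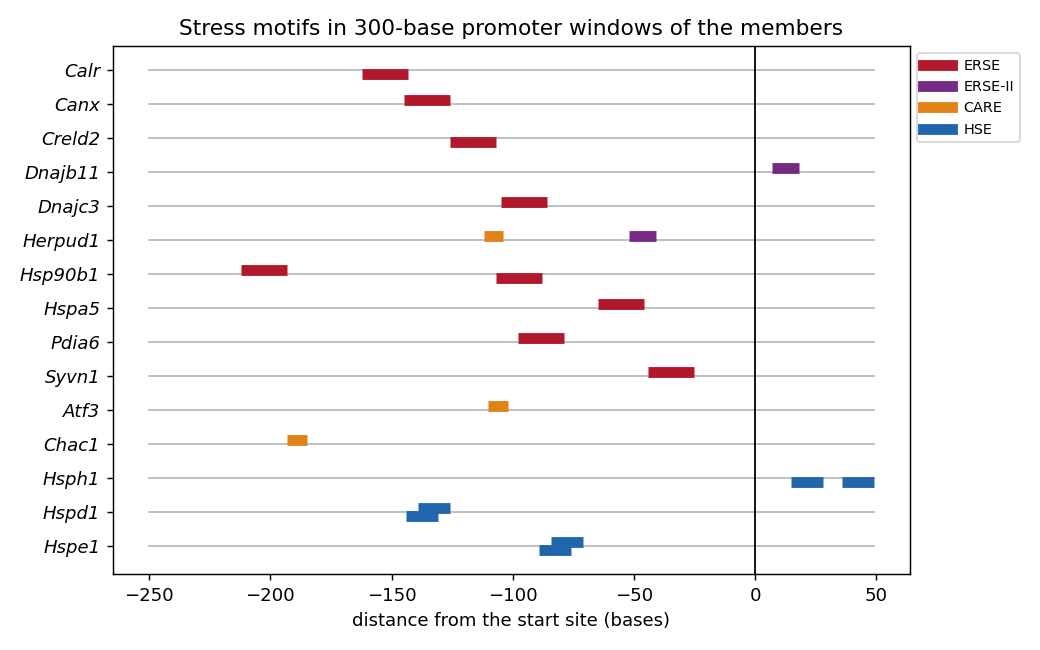
Position of each motif match (coloured bars) in the 300-base promoter windows of the 15 members with a match, as distance in bases from the start site at 0; bars above the line are on the gene's strand and below it on the other. ERSE lies in 8 endoplasmic reticulum genes, all before the start site, and HSE in Hsph1, Hspd1 and Hspe1.

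The 4 degradation factors were all positive in BD_HF against LF_LF, with a median of 1.15. Sel1l, the adaptor of the ubiquitin ligase that clears misfolded proteins from the reticulum (probe at chr12:93044963-93045022, mm9), read 1.95 and 2.08 for BD_HF, 0.69 and 1.78 for LF_HF, 0.62 and 0.51 for LF_LF and 0.99 and 1.19 for VAD_VAD. All arrays of the other groups lay above both LF_LF arrays. BD_HF exceeded LF_LF by 1.45 (SE 0.41, adjusted p 0.172), or 1.45 (SE 0.22, adjusted p 0.0125), 2.72-fold, without LF_HF replicate 1. Of its other 2 probes 1 had the same sign and 1 did not.

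Herpud1, a membrane protein that gathers the degradation complex (probe at chr8:96919117-96919176, mm9), read 6.07 and 6.17 for BD_HF, 4.84 and 5.59 for LF_HF, 4.70 and 4.95 for LF_LF and 5.48 and 6.16 for VAD_VAD. Like Dnajc3 it was high on the VAD_VAD arrays as well, both above LF_LF. BD_HF exceeded LF_LF by 1.29 (SE 0.39, adjusted p 0.206), called at 1.29 (SE 0.29, adjusted p 0.0434) without LF_HF replicate 1, and the VAD_VAD difference of 1.00 was not called (adjusted p 0.109). Its promoter held the shorter form of the element, ERSE-II (ATTGGNCCACG), found in 0.0365% of promoters and otherwise in Dnajb11 among the members, and at another place the motif TTGCATCA, a core of the sites that ATF4 and C/EBP proteins share. The first is shown because Herpud1 was called without an ERSE; it starts 52 bases before the start site, at chr8:94386357-94386407 on the forward strand.
Herpud1: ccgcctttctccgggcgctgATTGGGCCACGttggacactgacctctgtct

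Edem1, a lectin that hands misfolded glycoproteins to degradation (probe at chr6:108808920-108808979, mm9), read 3.37 and 3.22 for BD_HF, 2.15 and 3.37 for LF_HF, 2.27 and 2.32 for LF_LF and 2.66 and 2.48 for VAD_VAD. The first LF_HF array was again the lowest of the 8. BD_HF exceeded LF_LF by 1.00 (SE 0.21, adjusted p 0.0383) without LF_HF replicate 1 and was not called with it (adjusted p 0.391). The fourth, Syvn1, the ubiquitin ligase itself, differed by 0.86 and was not called.

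Of the sensors and their factors, Xbp1, whose messenger is spliced by IRE1 into the form that encodes an active factor (probe at chr11:5424970-5425029, mm9), read 3.47 and 3.69 for BD_HF, 3.03 and 5.02 for LF_HF, 2.63 and 2.85 for LF_LF and 4.14 and 3.36 for VAD_VAD. Both LF_LF arrays were the lowest, and the second LF_HF array stood above all others. That array exceeded LF_LF by 2.28 (SE 0.38, adjusted p 0.0158), 4.86-fold. With both LF_HF arrays the difference was 1.29 (SE 0.63, adjusted p 0.361). BD_HF and VAD_VAD differed from LF_LF by 0.84 and 1.01, not called in either fit. Whether the probe separates the spliced form was not tested.

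Eif2ak3, which encodes PERK, had the lowest difference of the endoplasmic reticulum genes in the 3 comparisons with LF_LF. It read -0.57 and -0.62 for BD_HF, -0.37 and -0.81 for LF_HF, -0.04 and -0.05 for LF_LF and -1.0 and -0.22 for VAD_VAD. Both LF_LF arrays lay above all others, by differences of -0.55, -0.55 and -0.57 for BD_HF, LF_HF and VAD_VAD, and none was called. Ern1 and Atf6 were not called, with differences between BD_HF and LF_LF of 0.19 and 0.34.

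The ATF4 arm moved apart from the folding genes. Its 6 members had a median of -0.96 in BD_HF against LF_LF, -0.97 in LF_HF against LF_LF and -1.17 in VAD_VAD against LF_LF, and in each of these 4 of the 6 lay entirely below LF_LF, against 26%, 22.7% and 25.5% of all genes (Ddit3 with 1 value in LF_HF). Asns, asparagine synthetase (probe at chr6:7625194-7625253, mm9), read -1.27 and -0.49 for BD_HF, 0.80 and 1.01 for LF_HF, 1.81 and 1.37 for LF_LF and 0.74 and 0.26 for VAD_VAD. The groups did not overlap, with BD_HF lowest and LF_LF highest. Asns fell by 2.47 (SE 0.39, adjusted p 0.034), or 5.54-fold, between LF_LF and BD_HF with all 8 arrays, and its adjusted p was 0.0108 without LF_HF replicate 1. Leaving out any 1 BD_HF, LF_LF or VAD_VAD array ended the call (adjusted p 0.067 to 0.358).

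Atf3, a factor induced by many stresses and also an immediate-early gene (probe at chr1:192994547-192994606, mm9), read -2.83 and -2.04 for BD_HF, -1.57 and -2.75 for LF_HF, 1.11 and 0.86 for LF_LF and -0.64 and -3.06 for VAD_VAD. Every array outside LF_LF was below both LF_LF arrays. BD_HF differed by -3.42 (SE 0.78, adjusted p 0.104), called at SE 0.74 and adjusted p 0.0406 without LF_HF replicate 1. In that fit LF_HF replicate 2 was lower than LF_LF by 13.3-fold (adjusted p 0.0496), and this call was lost with the replicate number as a block. VAD_VAD differed by -2.83 and was not called. Immediate-early genes respond to handling within minutes. The 14 in the list, without Atf3, summed to 41.0 to 55.2 in LF_LF, 24 to 33.5 in BD_HF, 28.1 to 34.6 in LF_HF and 32.7 to 100 in VAD_VAD (times the 75th percentile), and 12, 11 and 7 of 14 were negative in BD_HF, LF_HF and VAD_VAD against LF_LF. With all arrays 0, 1 and 0 of them were called, each lower. Their part in the ATF4-arm values was not tested.

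Trib3, a pseudokinase that ATF4 and CHOP induce (probe at chr2:152163355-152163414, mm9), read 0.80 and 1.5 for BD_HF, 0.83 and 0.01 for LF_HF, 2.56 and 2.17 for LF_LF and 0.51 and 1.71 for VAD_VAD. LF_LF was again above all other arrays. LF_HF replicate 2 differed from LF_LF by -2.36 (SE 0.55, adjusted p 0.0439), 5.12-fold lower, and with both LF_HF arrays the difference was -1.94 (adjusted p 0.116). Ddit3, which encodes CHOP, a factor that promotes cell death under lasting stress, read -0.72 and -0.10 for BD_HF, -0.97 on the LF_HF array that gave a value, 0.29 and 0.29 for LF_LF and -1.42 and -0.79 for VAD_VAD. It was below LF_LF on all 5 other arrays. It was not called with all 8 arrays or in the fit lacking LF_HF replicate 1, and with the slide added to that second fit as a block it was called lower in LF_HF (adjusted p 0.0395) and in VAD_VAD (adjusted p 0.030).

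Chac1, an enzyme that degrades glutathione and is induced by ATF4, went the other way (probe at chr2:119179990-119180049, mm9). It read 1.63 and 1.58 for BD_HF, 0.25 and 2.35 for LF_HF, 0.31 and -0.00061 for LF_LF, and 2.97 and 1.86 for VAD_VAD. BD_HF, VAD_VAD and LF_HF replicate 2 were all above LF_LF, and LF_HF replicate 1 lay between the LF_LF arrays. VAD_VAD exceeded LF_LF by 2.26 (SE 0.68, adjusted p 0.275), called at SE 0.38 and adjusted p 0.0248, 4.79-fold, without LF_HF replicate 1. LF_HF replicate 2 exceeded LF_LF by 2.19 (SE 0.46, adjusted p 0.0324). For BD_HF the difference of 1.45 had an adjusted p of 0.0683 in that fit, and of 0.033 with the block.

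Atf4 itself read 1.51 and 1.62 for BD_HF, 1.80 and 2.32 for LF_HF, 1.59 and 1.93 for LF_LF and 1.80 and 1.99 for VAD_VAD. BD_HF lay below LF_HF and VAD_VAD, every group overlapped LF_LF, and the differences from LF_LF were -0.19, 0.30 and 0.13. ATF4 is controlled mainly in translation, which an array does not measure. The motif TTGCATCA was present in 0.895% of promoters and, in this arm, in Atf3 and Chac1, which differed in direction between BD_HF and LF_LF. The windows are shown with the motif in capitals, at chr1:191183416-191183463 on the reverse strand and chr2:119351029-119351076 on the forward strand.
Atf3: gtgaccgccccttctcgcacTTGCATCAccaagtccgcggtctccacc
Chac1: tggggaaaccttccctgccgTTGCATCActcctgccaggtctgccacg

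**Figure D5:**
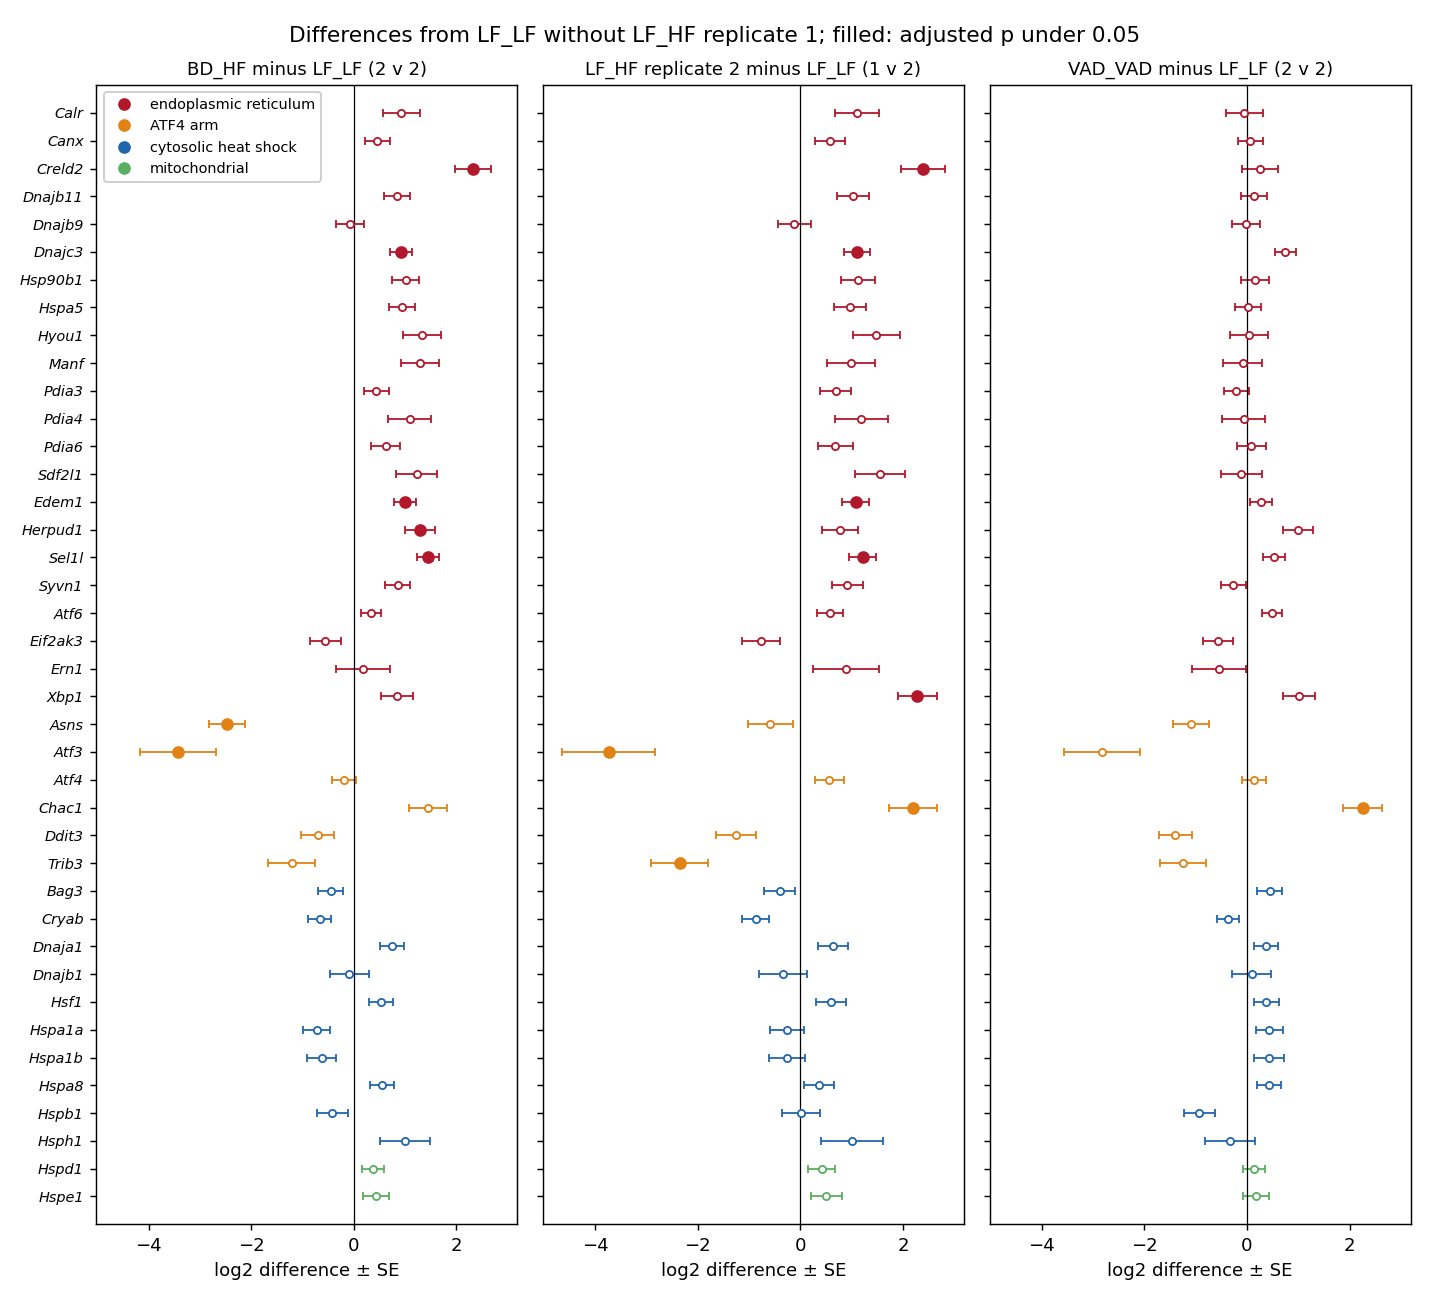
Differences from LF_LF (horizontal axis, log2, with the standard error from limma) for the 40 genes in BD_HF, LF_HF replicate 2 and VAD_VAD, without LF_HF replicate 1; filled points have an adjusted p under 0.05. Filled endoplasmic reticulum points lie to the right in the first 2 panels (5 in each), none lies in the VAD_VAD panel, and no cytosolic point is filled in any.

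The cytosolic heat shock genes showed no common direction. Hspa1a and Hspa1b encode the inducible Hsp70 and are near-identical copies whose probes may share signal, so their values are uncertain. Hspa1a read -2.06 and -2.58 for BD_HF, -2.09 and -1.86 for LF_HF, -1.49 and -1.70 for LF_LF and -1.03 and -1.29 for VAD_VAD. Hspa1b read -3.12 and -3.64 for BD_HF, -1.60 and -3.01 for LF_HF, -2.88 and -2.64 for LF_LF and -2.54 and -2.11 for VAD_VAD. Both were ordered BD_HF below LF_LF below VAD_VAD with no overlap, by -0.72 and -0.63 in the first step, and neither was called.

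Hspa8, the constitutive Hsp70, read 6.44 and 6.82 for BD_HF, 5.32 and 6.44 for LF_HF, 5.97 and 6.17 for LF_LF and 6.53 and 6.47 for VAD_VAD. Hsph1, an Hsp110 that exchanges the nucleotide of Hsp70, read 3.48 and 3.95 for BD_HF, 1.48 and 3.72 for LF_HF, 2.87 and 2.56 for LF_LF and 1.64 and 3.13 for VAD_VAD. Hsf1, the heat shock factor, read 3.95 and 4.17 for BD_HF, 3.29 and 4.13 for LF_HF, 3.57 and 3.48 for LF_LF and 4.11 and 3.70 for VAD_VAD. In each of these 3 genes BD_HF was above LF_LF and LF_HF replicate 1 was the lowest array. The differences were 0.56, 1.00 and 0.53, with adjusted p of 0.687, 0.694 and 0.661 with all arrays and 0.210, 0.268 and 0.236 without LF_HF replicate 1.

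Cryab, a small heat shock protein, was lowest of the set in LF_HF against LF_LF. It read -0.83 and -0.53 for BD_HF, -0.86 and -0.89 for LF_HF, -0.05 and 0.02 for LF_LF and -0.39 and -0.39 for VAD_VAD. Both LF_LF arrays were above all others, and LF_HF differed by -0.86 (SE 0.29, adjusted p 0.207). Its dimmer probe had the opposite sign there. Bag3, which couples Hsp70 to autophagy, read 2.51 and 2.31 for BD_HF, 2.46 on the LF_HF array with a value, 2.91 and 2.81 for LF_LF and 3.52 and 3.09 for VAD_VAD. Hspb1, another small heat shock protein, read 2.57 and 3.08 for BD_HF, 2.44 and 3.26 for LF_HF, 3.02 and 3.47 for LF_LF and 2.09 and 2.54 for VAD_VAD. Bag3 had the highest and Hspb1 the lowest difference of the set in VAD_VAD against LF_LF, at 0.45 and -0.93, and neither was called (adjusted p 0.715 and 0.506). The Hsp40 genes Dnaja1 and Dnajb1 differed between BD_HF and LF_LF by 0.75 and -0.09, not called.

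Hspd1 and Hspe1 encode the mitochondrial Hsp60 and Hsp10, neighbours transcribed in opposite directions from a shared stretch. Hspd1 read 6.91 and 7.13 for BD_HF, 6.16 and 7.06 for LF_HF, 6.61 and 6.67 for LF_LF and 6.83 and 6.73 for VAD_VAD. Hspe1 read 5.26 and 5.72 for BD_HF, 4.57 and 5.56 for LF_HF, 5.04 and 5.07 for LF_LF and 5.34 and 5.12 for VAD_VAD. For both, BD_HF and VAD_VAD lay above LF_LF and LF_HF replicate 1 was lowest, and no difference was called (0.38 and 0.44 for BD_HF against LF_LF). The heat shock element searched as GAANNTTCNNGAA was present in 0.603% of promoters. It was found in their shared stretch, in 2 overlapping matches, and in Hsph1 after the start site, and in no other cytosolic gene with a window. The match is shown in capitals on the reverse strand, as read toward Hspd1, at chr1:55088039-55088091.
Hspd1: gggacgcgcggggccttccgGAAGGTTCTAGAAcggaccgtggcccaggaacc

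Beyond the members, 4 lists of further genes of these pathways were counted. Of 40 other endoplasmic reticulum genes, Derl3, a channel component of the degradation machinery, was called in BD_HF against LF_LF with all arrays. It read 2.82 and 2.23 for BD_HF, 2.22 on the LF_HF array with a value, -0.86 and -1.0 for LF_LF and -1.47 and -0.07 for VAD_VAD. The high fat arrays were all above the low fat arrays, and BD_HF exceeded LF_LF by 3.45 (SE 0.52, adjusted p 0.0389, and 0.057 with the block). In the fit lacking LF_HF replicate 1, Ero1lb, an oxidase that supplies disulfides, was called as well in BD_HF (1.71) and LF_HF (1.85). The list as a whole had a median of 0.14 in BD_HF against LF_LF, with 26 of 40 positive, near the 0.11 of all genes. Fkbp11, a prolyl isomerase, had its lowest difference in all 3 comparisons with LF_LF (-1.19, -0.87 and -0.38), and Ero1lb (0.67) and Mbtps2, the protease that releases ATF6 (-1.75), were the extremes in BD_HF against LF_HF, none of them called with all arrays. In VAD_VAD the highest of the list was Ero1lb (1.20), not called.

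Of 32 other genes that ATF4 or its kinases bring in, the called ones fell. With all arrays these were 2 in BD_HF, 3 in LF_HF and 1 in VAD_VAD, each against LF_LF. They stood beside 1.52%, 2.5% and 0.632% of all genes called, and 1.06%, 1.88% and 0.527% called lower. The filter kept probes above background in any 1 group. For a gene above it in LF_LF and below it in the other group, only a fall could be called. Phgdh, the first enzyme of serine synthesis, read -3.62 and -3.37 for BD_HF, -3.47 on the LF_HF array with a value, 0.52 and -0.36 for LF_LF and -2.79 and -2.36 for VAD_VAD. It differed by -3.58 in BD_HF (adjusted p 0.0205) and -3.55 in LF_HF (adjusted p 0.0284). Psat1, the enzyme that follows it (above background on 1 of 2 LF_HF arrays), differed by -4.30 (adjusted p 0.047) and Atf5, a factor related to ATF4, by -1.73 (adjusted p 0.0416) in LF_HF. Slc7a11, the cystine transporter, was not well above background in BD_HF and VAD_VAD and was at least 3.01-fold and 3.27-fold lower there (adjusted p 0.025 and 0.0434). With the slide as a block 2, 1 and 0 calls were made. The highest differences from LF_LF with all arrays, not called, were Shmt2, the mitochondrial serine hydroxymethyltransferase, in BD_HF (1.05), Ppp1r15a, the phosphatase subunit that ends the response, in LF_HF (0.64), and Ddit4, an inhibitor of mTOR signalling, in VAD_VAD (2.54). Between BD_HF and LF_HF the extremes were Psat1 (1.43) and Tnfrsf10b (-2.92), not called, and Psat1 read -6.48 on LF_HF replicate 1 and -3.66 on replicate 2.

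When LF_HF replicate 1 was left out, 12 of the 32 were called in BD_HF against LF_LF, 10 in LF_HF and 6 in VAD_VAD. These counts stood beside 9.14%, 11.1% and 5.28% of all genes. All fell except Shmt2, which rose in BD_HF (1.05). In all 3 comparisons, a gene above background in LF_LF and below it in the other group could only be called lower. In the whole list 11, 12 and 13 of 32 differences were positive in that fit, with medians of -0.38, -0.47 and -0.20. Nupr1, a stress-induced chromatin protein, Phgdh, Psat1, Slc7a11 and Aldh18a1, an enzyme of proline synthesis, were among those called in all 3. The hormone Fgf21 read -1.61 and -1.69 for BD_HF, -2.74 and 0.14 for LF_HF, 1.89 and 1.49 for LF_LF and 1.96 and 0.76 for VAD_VAD, and was called lower in BD_HF (-3.34, adjusted p 0.00673). Gdf15, another secreted stress signal, was called there too (-2.09). Mthfd2, Stc2, Tnfrsf10b and Aldh18a1 were below background in BD_HF and at least 8.89-fold, 3.52-fold, 3.56-fold and 5.34-fold lower than in LF_LF. Their direction in BD_HF was thus set by the filter, as was that of Slc7a11 in BD_HF and VAD_VAD. In LF_HF replicate 2, Vldlr (-2.71) and Slc7a5 (at least 1.34-fold lower) completed the calls with Atf5, Stc2 and Tnfrsf10b.

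Of 39 other cytosolic chaperone genes none was called with limma with all arrays, and their median was 0.24 in BD_HF against LF_LF, with 33 of 39 positive. In the fit lacking LF_HF replicate 1, Serpinh1 was called lower in BD_HF (-1.28), LF_HF (-1.44) and VAD_VAD (-2.07). It encodes a heat-inducible chaperone of collagen that resides in the endoplasmic reticulum. It read 0.47 and 1.03 for BD_HF, 0.20 and 0.58 for LF_HF, 2.12 and 1.93 for LF_LF and -0.14 and 0.06 for VAD_VAD. Hspb6, a small heat shock protein, was called higher in VAD_VAD (1.47). Fkbp5, a glucocorticoid-induced co-chaperone, had the largest positive differences in LF_HF and VAD_VAD (1.72 and 2.41), Hspb6 in BD_HF against LF_LF (1.20), and Chordc1 and the factor Hsf2 were the extremes in BD_HF against LF_HF (0.79 and -0.93), none of them called with all arrays. Of 10 mitochondrial chaperone and protease genes none was called in either fit, and their differences lay between -0.49 and 0.70 with all arrays. The highest were Grpel2, Trap1, Trap1 and Dnaja3 and the lowest Yme1l1, Hspa9, Grpel2 and Timm44, in the order BD_HF against LF_HF, then BD_HF, LF_HF and VAD_VAD against LF_LF.

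Of 8 hepatocyte markers on the array, 7 or 8 were well above background on every array. Their summed level (times the 75th percentile) was 3621 to 4318 in BD_HF, 2326 to 5526 in LF_HF, 3275 to 3508 in LF_LF and 4418 to 5151 in VAD_VAD. All 8 were positive in BD_HF against LF_LF, with a median of 0.41, and none was called. Cell types rich in reticulum were also counted. The 10 acinar markers summed to 5.83 to 7.22 in BD_HF, 5.94 to 6.13 in LF_HF, 2.00 to 3.39 in LF_LF and 3.21 to 5.45 in VAD_VAD, and 6 of them were bright enough to be tested. That sum weighs most on Amy2a5 and Ctrb1. Of the 6, 4 were higher and 2 lower in BD_HF than in LF_LF. Cela1 was among the lower ones (-3.1 and -3.2 in BD_HF, -1.8 and -1.5 in LF_LF). Pnlip was above background on no array, Prss2 and Cpb1 on 1, Cpa1 on 2, Cela3b on 4, and Cela1, Cela2a, Amy2a5, Ctrb1 and Cel on 8. With all arrays 1 acinar marker was called, higher in LF_HF than in LF_LF. The 9 plasma and B cell markers, which include Derl3, summed to 8.46 to 11.1 in BD_HF against 4.54 to 5.47 in LF_LF, and without Derl3 to 3.77 to 4.0 against 4.04 to 4.92. Macrophage markers summed to 133 to 146 in LF_LF, 52.1 to 62.3 in BD_HF, 40.9 to 44.9 in LF_HF and 54.9 to 83.7 in VAD_VAD. That sum weighs most on Lyz2 (6.7 and 6.5 in LF_LF, 4.6 and 4.9 in BD_HF). Of the 8 macrophage markers 5, 6 and 6 were lower than LF_LF in BD_HF, LF_HF and VAD_VAD, and 3, 2 and 2 higher. Clec4f was among the higher ones (4.0 and 4.2 in BD_HF, 3.4 and 3.3 in LF_LF). Neutrophil markers summed to 19.1 to 26.0 in VAD_VAD and 1.81 to 6.27 elsewhere. Erythroid markers summed to 161 to 181 in BD_HF, 62.0 to 89.6 in LF_HF, 80.2 to 83.5 in LF_LF and 182 to 330.2 in VAD_VAD, a sum that weighs most on Hba-a1. The 8 skeletal muscle markers, whose tissue is rich in small heat shock proteins, summed to at most 2.50 in every group. The part of these cells in the values above was not tested.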

How the data were processed

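The deposited files are scanner output of 8 one-colour arrays (45018 spots each, design 014868), extracted, per the file headers, with Agilent Feature Extraction version 10.7.3.1, whose processed signal is an intensity with background subtracted and no scaling between arrays. The submitters' processing notes also name limma. The value table of the series holds intensity values on a linear scale, per the deposited files. Control spots and outlier spots were left out, log2 of the processed signal was taken minus the 75th percentile of each array, and probes were kept that both arrays of some group measured well above background (26215 of 41174). The probe with the highest mean stood for its gene, giving 17259 genes. Log2 values were fitted with limma 3.58.1 in R 4.3.3 (lmFit, eBayes, all 8 arrays, diet group only) with Benjamini-Hochberg adjustment over all genes, after a test on simulated data. No spot was saturated. A fold bound uses, for the dim group, the higher of the lowest signal well above background and the probe's own.

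The members and lists were chosen with earlier results of these data known. Values per array are given for members called in any comparison, for the extremes of each set and comparison and for a fixed list (Hspa5, Xbp1, Atf4, Ddit3, Hspa1a, Hspa1b, Hspa8, Hsf1, Hspd1, Hspe1), and of other pathway genes those called and the extremes are named. Replicate 1 of every group was on one slide and replicate 2 on the other, so the replicate number as a block is the slide. Deviations of same-numbered arrays correlated at 0.098 to 0.302. Alternatives covered background correction, scaling, the dim-probe filter, the probe rule, the variance model, array weights, the block, the value table, fits of 2 groups and leaving out each array. Those that combined a further change with leaving out LF_HF replicate 1 were chosen after seeing the data. Probe positions are those of the headers (mm9); sequences are from RefSeq. The exon or untranslated region under each probe was not looked up.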

Additional observations from a re-analysis of the deposited data

How the results depend on the processing

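The number of the 40 genes called moved with several choices. Array weights were equal within each pair (0.195 for LF_HF, 3.27 for LF_LF) and so did not separate the LF_HF arrays. With them 3 were called in VAD_VAD (6.76% of all genes), 16 in BD_HF against LF_LF (16.2%) and 6 by the F test. With a trended, robust variance 2 were called in LF_HF against LF_LF (4.7% of all genes), 3 in BD_HF against LF_LF (3.52%) and 2 by F. With normexp correction the numbers were 2 (15.4% of all genes), 1 for VAD_VAD (2.09%), 4 (4.06%) and 2 by F. With normexp and quantile scaling they were 2 (8.16%), 1 (2.25%), 3 (5.05%) and 2 by F. Quantile scaling alone gave 1 in LF_HF against LF_LF (5.15% of all genes). The stricter filter gave 2 there (4.4%), 2 in BD_HF against LF_LF (2.29%) and 2 by F. No filter gave 0 in BD_HF against LF_LF (0%), with 27218 genes tested (Asns adjusted p 0.176). A fit of the groups compared gave 16 in BD_HF against LF_LF (14.9% of all genes). With all 8 arrays or the groups compared alone, calls over all genes moved from 262 in BD_HF against LF_LF to 0 (no filter) and 2790 (array weights), from 431 in LF_HF against LF_LF to 0 (groups compared alone) and 2659 (normexp), and from 109 in VAD_VAD to 0 (no filter) and 1166 (array weights). Among cytosolic genes, Cryab was called in LF_HF against LF_LF (normexp with quantile scaling, and normexp without LF_HF replicate 1), Dnaja1 and Cryab in BD_HF against LF_LF (array weights), and Dnaja1, Hspa8, Hsph1 and Hspa1b in BD_HF against LF_HF (without LF_HF replicate 2).

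Leaving out arrays, alone or with LF_HF replicate 1, gave 0 to 16 called in BD_HF against LF_HF, 0 to 12 in LF_HF against LF_LF, 0 to 5 in VAD_VAD, 0 to 16 in BD_HF against LF_LF and 0 to 17 by F. The endoplasmic reticulum median ranged from -0.16 to 1.28 in BD_HF against LF_HF and from -0.44 to 1.14 in LF_HF against LF_LF. The cytosolic median ranged from -0.058 to 0.77 and from -0.75 to 0.053 (without LF_HF replicate 1 and LF_LF replicate 2). Where LF_HF replicate 1 was left out and the processing was changed too, the cytosolic median in LF_HF against LF_LF reached 0.13. With normexp correction and without LF_HF replicate 1, 10 genes were called in BD_HF against LF_LF, beside 9.82% of all genes. In BD_HF against LF_LF these medians kept their signs. The cause of these moves was not tested.

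With the replicate number (slide) as a block, 0, 0, 0 and 1 genes were called in BD_HF against LF_HF, LF_HF against LF_LF, VAD_VAD against LF_LF and BD_HF against LF_LF, and 0 by F, as without it (Asns adjusted p 0.048). With the block and without LF_HF replicate 1 the numbers were 0, 7, 2 and 8, and 6 by F, and the endoplasmic reticulum median in BD_HF against LF_HF was -0.085. Deviations of same-numbered arrays correlated at 0.154 to 0.302 in 5 pairs of groups and at 0.098 in LF_HF with VAD_VAD. Of the 40 genes, the slide block changed the calls of Chac1, Atf3, Edem1 and Ddit3, each without LF_HF replicate 1, and no other. With 2 arrays a group, and 1 where an array is left out, few differences could pass, and dim genes near background are bounds.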
